A study of Mus musculus with 32 samples.

Results

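C1q Stab1 cells were the macrophages of these cultures whose mRNA counts combined the 3 chains of complement C1q with *Stab1*, *Cbr2*, *Fcrls*, *F13a1* and *Pf4*. These genes are carried by macrophages that live in tissues, though not each of them by such cells alone. They were chosen by reading those genes, cell by cell. A cell entered if it held at least 2 UMIs (unique molecular identifiers, 1 for each captured mRNA molecule) of *Tyrobp*, an adaptor of myeloid receptors, at least 10 C1q UMIs per 10000, and at least 3 of the other 5 genes. In all, 6457 of 17692 *Tyrobp* cells (36.5%) and of 90924 cells kept (7.10%), those with 400 to 6200 genes and at most 10% mitochondrial UMIs, qualified. The other 11235 *Tyrobp* cells served as the comparison.

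The cells came from BMSC-OB cultures of 77 Diversity Outbred (DO) mice, an outbred stock made from several inbred strains. BMSC-OBs are bone marrow stromal cells grown to confluence and then kept in osteogenic medium with ascorbic acid, β-glycerophosphate and dexamethasone for a fixed number of days. Cells of 4 or 5 mice were pooled per droplet library, giving 16 pools (13 of 5 mice and 3 of 4), each sequenced in 2 runs of the same droplets, of which the first was used here. The labels gave neither a treatment nor a sex or age for any pool, all pools shared the same culture, and the count files used here do not assign cells to mice, so the pool was the replicate and every comparison was between cells of the same pool.

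C1q is the first component of the classical complement pathway, and its A, B and C chains assemble into a bouquet-shaped molecule that binds antibody complexes and dying cells. Tissue macrophages are a main source of it, and marrow macrophages are known for engulfing the nuclei expelled by erythroblasts, for recycling iron and for sitting close to osteoblasts on bone surfaces. Stabilin-1, encoded by *Stab1*, is an endocytic scavenger receptor, *Cbr2* encodes a carbonyl reductase, *Fcrls* an Fc receptor-like protein, *F13a1* the A subunit of coagulation factor XIII, and *Pf4* the chemokine platelet factor 4.

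The 3 C1q genes lie side by side on the minus strand of chromosome 4, from 136880129 to 136898803 (GRCm38), a stretch of 18675 bases. Promoters of 7 of the 9 genes used for the selection were found in the RefSeq set for GRCm38.p6, those of *C1qb*, *C1qc*, *Stab1*, *Cbr2*, *Fcrls*, *F13a1* and *Pf4*. Each window ran from 250 bases before the transcription start to 50 after it. Of these, 4 are shown, for a pair of neighbouring C1q chains and a pair of the genes that accompany them in the selection. Capitals mark GAGGAA or its reverse complement TTCCTC, the core bound by the myeloid factor PU.1, and TGCTGA or its reverse complement TCAGCA, the core bound by MAF factors.
C1qb, chr4:136886151-136886450, minus strand: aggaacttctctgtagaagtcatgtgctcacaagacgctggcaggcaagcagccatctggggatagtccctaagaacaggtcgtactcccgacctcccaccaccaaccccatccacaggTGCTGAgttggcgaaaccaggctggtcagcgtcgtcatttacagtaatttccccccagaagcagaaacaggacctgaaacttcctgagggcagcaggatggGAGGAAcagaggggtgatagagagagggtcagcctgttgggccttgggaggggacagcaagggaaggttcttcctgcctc
C1qc, chr4:136892865-136893164, minus strand: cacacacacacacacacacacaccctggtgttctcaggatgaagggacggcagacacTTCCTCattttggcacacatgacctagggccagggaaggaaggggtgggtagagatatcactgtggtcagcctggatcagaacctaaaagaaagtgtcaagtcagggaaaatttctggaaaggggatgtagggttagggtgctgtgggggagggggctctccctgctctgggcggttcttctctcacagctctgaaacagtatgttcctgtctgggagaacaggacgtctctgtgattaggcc
Stab1, chr14:31168592-31168891, minus strand: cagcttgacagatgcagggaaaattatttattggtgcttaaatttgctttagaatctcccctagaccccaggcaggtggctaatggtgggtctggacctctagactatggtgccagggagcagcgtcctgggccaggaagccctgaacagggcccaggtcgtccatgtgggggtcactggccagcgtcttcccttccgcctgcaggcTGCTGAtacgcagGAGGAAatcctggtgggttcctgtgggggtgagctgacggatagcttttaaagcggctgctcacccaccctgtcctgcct
Fcrls, chr3:87263475-87263774, minus strand: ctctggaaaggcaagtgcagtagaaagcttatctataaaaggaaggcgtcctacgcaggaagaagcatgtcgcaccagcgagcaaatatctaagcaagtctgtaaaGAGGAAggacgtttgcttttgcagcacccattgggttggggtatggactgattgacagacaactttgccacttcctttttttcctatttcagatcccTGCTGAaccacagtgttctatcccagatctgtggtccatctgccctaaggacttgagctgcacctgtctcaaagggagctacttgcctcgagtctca
GAGGAA was present on either strand in all 7 promoters, and in 28.3% of the 32851 mouse promoters of the set. TGCTGA was present in 4 of the 7, those of *C1qb*, *Stab1*, *Cbr2* and *Fcrls*, and in 19.5% of all promoters. The letters describe the windows and were not tested as binding sites.

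In the members, the selection genes had the levels that the rule imposed, so they are given without a test. Levels are counts per 1000000 UMIs (CPM) after summing over the cells of a group in a pool. *C1qa* ranged from 1341 to 3271 CPM over the pools with a median of 2195, against 208 to 692 in the other *Tyrobp* cells. *Stab1* ranged from 234 to 451 CPM, against 15.6 to 53.4, and *Fcrls* from 38.1 to 215 CPM, against 0.980 to 11.6. Of the 6457 members, 2345 carried exactly 3 of the 5 non-C1q genes, 2563 carried 4 and 1549 carried all 5. *Pf4* was present in 97.3% of them and *F13a1* in 97.0%, while *Fcrls* was present in 38.3%.

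Because *F13a1* and *Pf4* are also platelet genes, the label was checked against platelet markers. The summed level of 8 platelet and megakaryocyte genes was 2.28 to 5.4 CPM in the members, and *Gp9* and *Gp1ba* were at 0 in every pool. The members therefore carried *Pf4* without its platelet companions. Macrophage identity was seen in genes outside the rule: *Csf1r*, the receptor for the growth factor CSF1, was detected in 90.4% ± 2.77 of members (SD, n = 16 pools) and *Adgre1*, which encodes the F4/80 antigen, in 76.6% ± 5.65. In cells with under 2 *Tyrobp* UMIs the shares were 8.47% and 4.34%, at a median of 10812 UMIs per cell against 6420 in the members. Those cells were not free of macrophage RNA, with a median of 0 but a highest value of 195.5 C1q UMIs per 10000. *Timd4*, a receptor for dying cells on many long-lived tissue macrophages, was almost missing, with 0 to 7.81 CPM over the pools. *F13a1* was not particular to the members, being detected in 74.9% of the MHC class II cells described below, which lie outside the selection. Those cells held *Pf4* in 25.6%, *Cbr2* in 19.8%, *Stab1* in 7.78% and *Fcrls* in 2.22%. Resident-type is a working name, since the C1q set chose the members and *Timd4* did not mark them.

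The 3 chains were counted in steady proportions. *C1qa* made up 39.9% ± 2.58 of the C1q UMIs of the members, *C1qb* 32.3% ± 1.69 and *C1qc* 27.8% ± 2.00 (SD, n = 16 pools). In the other *Tyrobp* cells the shares were 39.4%, 33.1% and 27.6%. In cells with under 2 *Tyrobp* UMIs, where 30.8% of cells still held a C1q UMI, they were 40.3%, 28.8% and 30.9%. All 3 chains were detected in 6280 members (97.3%), with a median of 39 C1q UMIs per cell.

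The edges of the selection were populated. Members with 10 to 15 C1q UMIs per 10000 numbered 406 and had a median of 15286 UMIs per cell, and 53.2% of them were called doublets, droplets that held a pair of cells. Just outside, 427 cells with at least 3 of the 5 genes had 5 to 10 C1q UMIs per 10000, a median of 19316 UMIs and 57.4% called doublets. Over all members 12.2% were called doublets, and over the other *Tyrobp* cells 13.2%. Another 549, 1414 and 1943 *Tyrobp* cells passed the C1q limit but carried 0, 1 or 2 of the 5 genes, at median depths of 3005, 3953 and 4584 UMIs, below the 5546 UMIs of members with 3 of the 5. A limit on detected genes is met less easily at low depth, and the members were deeper than the other *Tyrobp* cells (6420 against 5481 UMIs per cell, with the higher median in 13 of 16 pools).

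The members were found in every pool, from 124 cells in pool 4 to 997 in pool 2. They made up 36.8% ± 7.99 of the *Tyrobp* cells (SD, n = 16 pools), or 23.2% with 4 of the 5 genes required. The lowest share was 22.0% in pool 13 (exact binomial 95% interval 19.5 to 24.8) and the highest 49.9% in pool 10 (46.6 to 53.3). These intervals cover counting error only, and those of pools 13 and 10 do not overlap. The other *Tyrobp* cells of pool 13 stood apart, with a median of 4.80% of their UMIs from stromal genes (median over the pools 0.259%), near the 5.19% of its cells with under 2 *Tyrobp* UMIs, which held *Tyrobp* at 37.7 CPM, the highest of the pools. The part of stromal cells in its low share was not tested. As a share of all kept cells the members ranged from 1.96% in pool 4 to 15.6% in pool 7, and here fewer members and more stromal cells cannot be told apart.

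**Figure D1:**
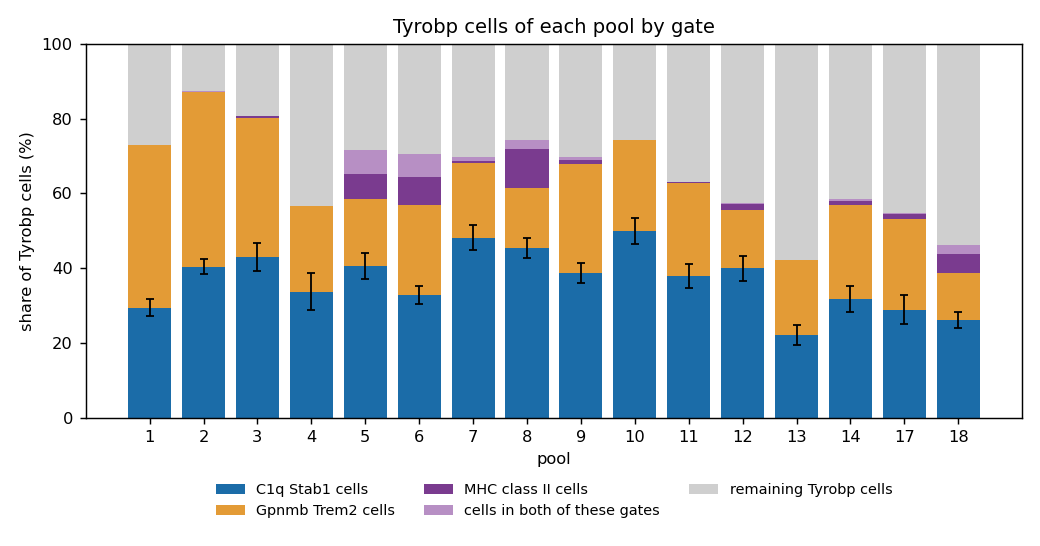
Share of the *Tyrobp* cells of each pool (y axis, percent) taken by C1q Stab1 cells, Gpnmb Trem2 cells, MHC class II cells, cells in both of the latter gates and the remaining cells (stacked bars, 1 bar per pool). Error bars on the C1q Stab1 part are exact binomial 95% intervals; it runs from 22.0% in pool 13 to 49.9% in pool 10.

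No relation of the share to 3 other properties of the pools passed the test. Against the median UMI count of the other *Tyrobp* cells, Pearson's r over 16 pools was 0.314 (permutation p = 0.24, adjusted 0.71 over 3 relations) and Spearman's rho 0.365 (permutation p = 0.17, adjusted 0.5). Without pools 5 and 13, which lie farthest from the median depth, r was 0.0847. For the share of MHC class II cells, r was 0.0628 (permutation p = 0.82, adjusted 0.9) and rho 0.124 (p = 0.65, adjusted 0.93), with r = 0.108 without pools 5 and 6. For the share of Gpnmb Trem2 cells, r was 0.0355 (permutation p = 0.9, adjusted 0.9) and rho -0.0265 (p = 0.93, adjusted 0.93), with r = 0.162 without pools 1 and 2. Shares of 1 total are tied to each other, which these values do not remove.

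The second sequencing run of the same droplets tested how firmly a cell was placed. Of the members of the first run, 5513 (85.4%) were members again in the second run, from 73.4% to 90.0% over the pools. Libraries shared 1080 of 89835 kept barcodes (1.20%) with another pool, and 7 member barcodes occurred in more than 1 pool.

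Compared with the other *Tyrobp* cells of their pool, the members carried more mRNA for uptake receptors, chemokines and most tested complement genes, and less for most tested neutrophil, monocyte, lipid-handling and osteoclast genes. For the test, edgeR was fitted by quasi-likelihood to the counts summed per pool and group, pools entering as blocks, and p-values were adjusted by Benjamini-Hochberg over 10963 genes. Of these, 26.5% were higher and 30.9% lower in the members (57.4% in either direction), 3% at least 2-fold higher and 1.19% at least 2-fold lower. The other *Tyrobp* cells were a mixture that included neutrophils. Their 9 neutrophil genes summed to 606 to 62337 CPM over the pools, against 13.2 to 2135 in the members, so the comparison is with a mixture. With every cell thinned to 3000 UMIs before the selection, 1698 genes were higher and 1762 lower in place of 2906 and 3390, and without the pool block 2241 were lower. Against only the other cells that held a *Csf1r* UMI, 2460 genes were higher and 2792 lower. With that setting the log2 fold changes were 2.48 for *Mrc1*, 3.25 for *Vsig4* and 2.42 for *Ccl2* (2.86, 3.55 and 2.74 against all other cells), and -3.75 for the neutrophil gene *S100a9* in place of -6.97.

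Receptors that take up sugars, lipoproteins and debris were higher in the members as a group. All 16 of the tested genes of this list, of 21 listed, were higher in the members, 12 of them at least 2-fold, and their median log2 fold change was 2.10 against -0.04 over all genes tested. *Mrc1*, the mannose receptor, ranged from 337 to 921 CPM in the members with a median of 494, and from 47.5 to 206 in the other cells with a median of 65.8. The ranges did not overlap, and the log2 fold change was 2.86 (SE 0.095, adjusted p = 9.86e-16 by edgeR). *Lyve1*, a hyaluronan receptor, ranged from 9.29 to 64.6 CPM with a median of 25.5, against 0 to 4.43, again without overlap, and its log2 fold change was 4.51 (SE 0.21). *Siglec1*, the sialic acid receptor CD169 of marrow macrophages, ranged from 16.5 to 46.1 CPM against 0.831 to 6.80 (log2 fold change 3.66). The hemoglobin-haptoglobin receptor *Cd163* (12.98 to 94.1 CPM against 1.70 to 8.86) and the lectin *Fcna* (13.5 to 46.9 CPM against 0.724 to 7.72) were likewise separated in level in all pools.

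*Marco*, a scavenger receptor for bacteria and particles, varied more than these among the pools. It ranged from 5.93 to 282 CPM in the members with a median of 77.8, and from 0.263 to 33.3 in the other cells, and was higher in the members in 16 of 16 pools (log2 fold change 3.64, SE 0.23). *Clec10a*, a galactose lectin, ranged from 10.8 to 265 CPM against 2.60 to 41.8 (log2 fold change 2.52). The folate receptor *Folr2*, at 164 to 454 CPM, overlapped the 32.5 to 317 CPM of the other cells between pools, though it was higher within all 16 (log2 fold change 1.38). The smallest change of the list was in the HDL receptor *Scarb1*, at 0.28. Of the receptors not tested, *Stab2*, the endothelial relative of *Stab1*, did not exceed 1.29 CPM and *Cd209f* was at 0 in every pool.

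Only a minority of members held a UMI of some of these receptors. *Lyve1* was detected in 9.32% ± 3.16 of members (SD, n = 16 pools), in 0.811% of the other *Tyrobp* cells and in 0.481% of cells with under 2 *Tyrobp* UMIs. After every cell was thinned to 3000 UMIs the shares were 5.51%, 0.362% and 0.184%, the last in sampled cells without any *Tyrobp* UMI. *Vsig4* was detected in 17.8% ± 6.34 of members, 15.95% after thinning. It was in 3.19% of the thinned other cells and 0.418% of the thinned cells without a *Tyrobp* UMI. *Mrc1* by contrast was in 80.4% ± 6.07 of members and in 64.9% after thinning, against 18.0% and 1.80%. Thinning left out 723 members, 2742 of the other *Tyrobp* cells and 1537 of 6400 sampled cells without a *Tyrobp* UMI, all with fewer than 3000 UMIs. At equal depth the shares of members exceeded those of the cells without a *Tyrobp* UMI. Free RNA was not measured, and its part in these shares was not tested.

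**Figure D2:**
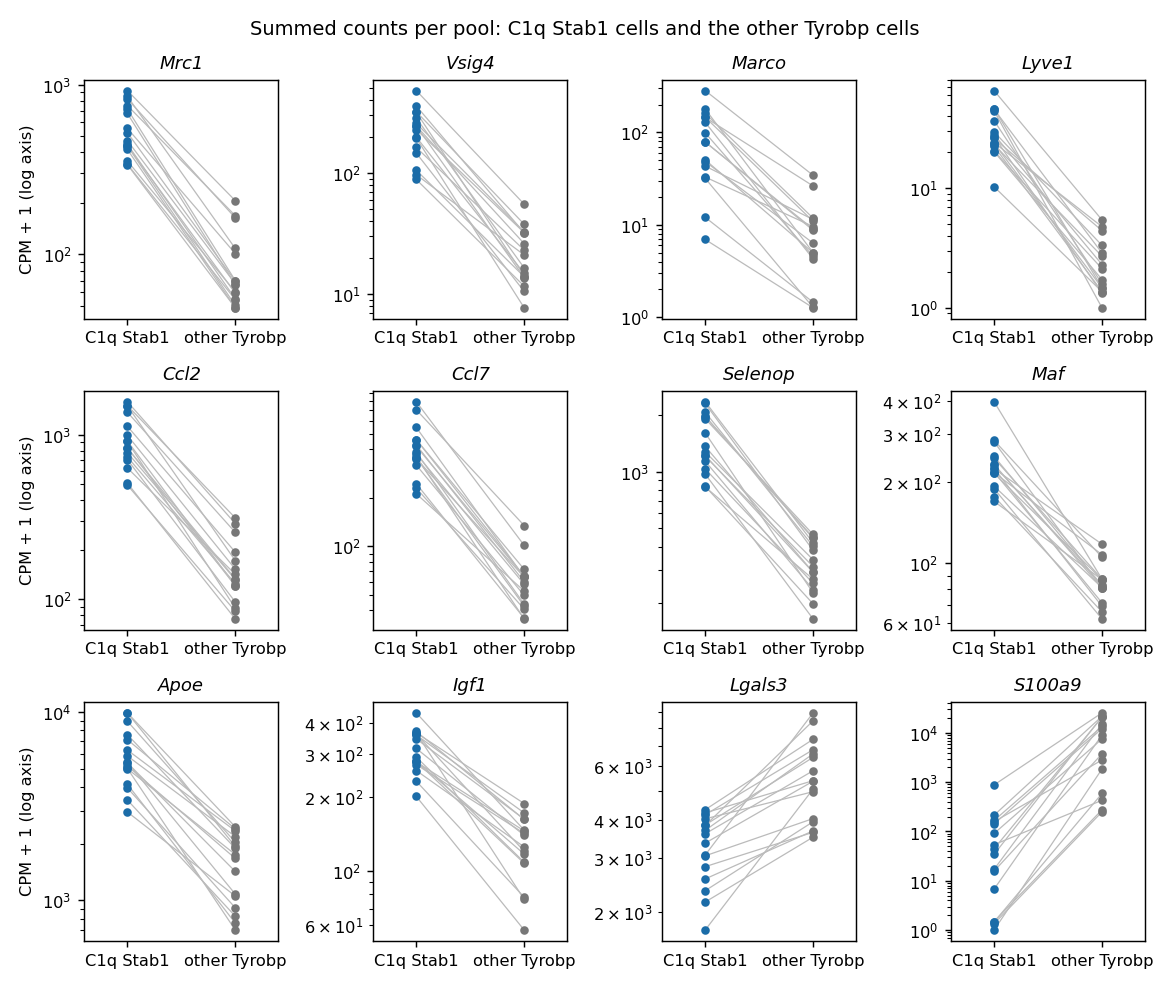
Level in CPM + 1 (y axis, log scale) of 12 genes in C1q Stab1 cells (left points) and in the other *Tyrobp* cells (right points), 1 point per pool, with lines joining the groups of a pool. *Mrc1*, *Vsig4*, *Lyve1*, *Ccl2*, *Ccl7*, *Selenop*, *Maf*, *Apoe* and *Igf1* sit higher in the members without overlap, *Marco* higher within each pool, and *Lgals3* and *S100a9* lower within each pool.

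Complement genes beyond C1q followed in part. Of 16 listed, 11 were tested, 8 were higher and 3 lower, with a median log2 fold change of 0.65. *Vsig4*, the receptor CRIg for complement C3 fragments, ranged from 87.4 to 479 CPM in the members with a median of 236, against 6.70 to 54.3 with a median of 17.7. The groups did not overlap (log2 fold change 3.55, SE 0.16, adjusted p = 7.07e-14 by edgeR). *Cfp*, which encodes properdin, the stabiliser of the alternative pathway, ranged from 68.2 to 185 CPM against 13.6 to 54.5 (log2 fold change 2.05), and *C5ar1*, the receptor of the C5a fragment, from 117 to 267 CPM against 35.4 to 94.0 (1.63). *C3*, the central component, was lower in the members, at 1.47 to 28.8 CPM against 1.88 to 120 (log2 fold change -1.59), in 14 of 16 pools. Also called lower were *Cd59a*, an inhibitor of the membrane attack complex (-0.36), and *Serping1*, the C1 inhibitor (-0.31). Without the 20% of cells richest in stromal RNA their values were -0.04 and -0.12 (adjusted p = 0.856 and 0.612 by edgeR). Cells with under 2 *Tyrobp* UMIs held them at medians of 54.5 and 121 CPM, above the 18.4 and 37.6 CPM of the members. That step removes cells by stromal genes, and the part of stromal RNA in these 2 differences was not tested.

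Chemokine genes were higher without exception among those tested. All 13 of the tested genes, of 15 listed, were higher in the members, 11 of them at least 2-fold, and the median log2 fold change was 1.81. *Ccl2*, which draws monocytes, ranged from 492.5 to 1581 CPM with a median of 869, against 75.2 to 311 with a median of 132. The groups did not overlap (log2 fold change 2.74, SE 0.071). Its neighbour *Ccl7*, which signals through the same receptor, ranged from 211 to 791 CPM against 34.3 to 134 (log2 fold change 2.85, SE 0.078), and *Cxcl2*, which draws neutrophils, from 2072 to 5602 CPM against 976 to 1930 (1.29). *Ccl8* had a similar fold change to *Marco* but another pattern: 1.15 to 1579 CPM in the members with a median of 27.4, and 0 to 120 in the other cells, higher within 16 of 16 pools (log2 fold change 3.65, SE 0.23). *Ccl2*, *Ccl7*, *Ccl12* and *Ccl8* lie within 81229 bases of chromosome 11, from 82035571 to 82116799 (GRCm38).

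Among the secreted factors that were higher was *Selenop*, which encodes the selenium carrier selenoprotein P. It ranged from 828 to 2351 CPM in the members with a median of 1316, against 164 to 462, without overlap (log2 fold change 2.28, SE 0.066). Of 20 listed genes of growth and repair factors, 18 were tested, 12 were higher and 3 lower, with a median log2 fold change of 0.67. *Gdf15*, a stress cytokine, ranged from 149 to 961 CPM against 40.6 to 272 (1.85), *Igf1*, a growth factor for osteoblasts among others, from 200 to 439 CPM against 56.3 to 187 (1.4), *Pdgfb*, a mitogen of mesenchymal cells, from 40.7 to 103 CPM against 10.5 to 53.0 (1.49), and the anti-inflammatory cytokine *Il10* from 51.9 to 176 CPM against 16.2 to 88.8 (1.35). Each of these 4 was higher in 16 of 16 pools. *Fn1*, fibronectin, was lower (log2 fold change -0.55), in 13 of 16 pools. Its level in cells with under 2 *Tyrobp* UMIs was 1075 CPM at the median, above both groups, and without the 20% of cells richest in stromal RNA its log2 fold change was -0.42. The part of stromal RNA in the *Fn1* difference was not tested.

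The list for heme and iron handling also held *Hpgds*, *Vcam1* and *Cd5l*. Of its genes, 14 of 16 tested were higher and none lower, with a median log2 fold change of 0.91. *Cd5l*, a secreted scavenger-type protein of macrophages, ranged from 1.69 to 80.2 CPM against 0 to 14.6 (log2 fold change 3.21). *Tfrc*, the transferrin receptor, ranged from 54.9 to 465 CPM against 21.6 to 126 (1.41). *Hmox1*, which degrades heme, ranged from 349 to 736 CPM against 203 to 505 (0.86) and *Slc40a1*, the iron exporter ferroportin, from 22.1 to 66.2 CPM against 8.03 to 31.0 (0.94). Ranges overlapped for all 4 genes between pools, while within pools they were higher in 15 or 16 of 16.

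Genes that clear dying cells moved less. Of 16 listed, 15 were tested, 11 were higher, 1 of them at least 2-fold, and 2 lower, with a median log2 fold change of 0.38. *Gas6*, the bridge between phosphatidylserine and TAM receptors, ranged from 329 to 553 CPM against 151 to 303 (log2 fold change 1.03), though cells with under 2 *Tyrobp* UMIs also held it at a median of 372 CPM. *Mertk*, the TAM receptor of macrophages, ranged from 41.5 to 79.4 CPM against 16.4 to 50.2 (0.84). *Mfge8*, another bridge, was lower in 16 of 16 pools (log2 fold change -0.87). Cells with under 2 *Tyrobp* UMIs held it at a median of 134 CPM, and without the 20% of cells richest in stromal RNA its log2 fold change was -1.15. The part of stromal RNA in the *Mfge8* difference was not tested.

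Among transcription factors *Maf* stood out. It ranged from 168 to 395 CPM in the members with a median of 223, and from 61.2 to 117 in the other cells with a median of 81.7, without overlap (log2 fold change 1.54, SE 0.069). Cells with under 2 *Tyrobp* UMIs held *Maf* at a median of 104 CPM, a level below every pool of the members. *Spi1*, which encodes PU.1, was higher by 0.52, and by 0.15 after thinning (adjusted p = 0.0928). *Irf8*, a factor of monocytes and macrophages, was higher by 0.96. Of 19 factors tested, 10 were higher and 4 lower, and the median was 0.27.

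Pan-macrophage genes were higher in all 15 cases, with a median log2 fold change of 1.01. *Csf1r* ranged from 351 to 619 CPM against 122 to 246 (log2 fold change 1.66), *Adgre1* from 195 to 418 CPM against 38.5 to 90.4 (2.24), and the fractalkine receptor *Cx3cr1* from 8.00 to 66.3 CPM against 3.67 to 17.4 (1.92). *Slc9a9*, an endosomal sodium-proton exchanger, was among the 8 genes with the highest fold changes under the naming rule, at 32.9 to 75.2 CPM against 5.53 to 14.0 (2.83).

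Lipid-handling genes of macrophages were split, with 11 of 18 tested lower, 6 higher and a median log2 fold change of -0.26. *Lgals3*, galectin-3, ranged from 1748 to 4328 CPM against 3520 to 8974 (-0.68) and *Plin2*, the coat protein of lipid droplets, from 263 to 1074 CPM against 510 to 1883 (-0.79), both lower in 16 of 16 pools. *Apoe*, the lipid carrier of macrophages, was among the 6 higher genes, at 2947 to 9902 CPM against 695 to 2458, without overlap (2.02).

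Lower in the members were genes of other myeloid cells. The 8 genes with the lowest fold changes under the naming rule, which asks for a fall in every pool, were all neutrophil or neutrophil precursor genes. *S100a9*, a subunit of calprotectin, ranged from 0 to 880 CPM in the members with a median of 38.4, against 249 to 25499 with a median of 8294 (log2 fold change -6.97, SE 0.53). The others were *S100a8*, *Ctsg*, *Camp*, *Ngp*, *Lcn2*, *Olfm4* and *Retnlg*. In cells with under 2 *Tyrobp* UMIs *S100a9* lay at a median of 51.6 CPM, close to its level in the members. Of 11 tested monocyte genes 8 were lower and 2 higher (median log2 fold change -1.16). *Ly6c2*, a surface protein of inflammatory monocytes, ranged from 0 to 18.9 CPM against 1.07 to 266 (-4.53), and *Chil3*, a chitinase-like protein, from 0 to 365 CPM against 24.4 to 7529 (-4.66). The exceptions were *Ms4a6c* and *S100a4*, higher by 1.81 and 0.55.

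Most tested osteoclast genes were lower. Of 7 tested, 5 were lower, 1 higher and 1, the acid phosphatase *Acp5*, did not pass the test (-0.04), with a median log2 fold change of -0.62. *Mmp9*, a collagenase of osteoclasts and neutrophils, ranged from 1.18 to 40.6 CPM against 23.6 to 343 (-3.13), and *Dcstamp*, needed for the fusion of osteoclast precursors, from 0 to 3.52 CPM against 0.938 to 34.5 (-1.85). *Tnfrsf11a*, which encodes RANK, ranged from 25.4 to 63.7 CPM against 12.4 to 45.4 and was higher in 16 of 16 pools (log2 fold change 1.10).

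All 9 stromal genes were lower in the members, with a median log2 fold change of -0.63. Their sum was 13020 to 52442 CPM in the members, 21919 to 75623 in the other *Tyrobp* cells and 61694 to 138132 in the cells with under 2 *Tyrobp* UMIs. *Col1a1*, the main collagen of osteoblasts, was detected in 97.0% of members and fell by 0.63 on the log2 scale. Without the 20% of cells richest in stromal RNA its difference was -0.04 (adjusted p = 0.806 by edgeR), a step that removes cells by stromal genes themselves and so lowers part of the difference by construction. The endothelial sum was 3.09 to 14.3 CPM in the members, against 4.90 to 60.6, and 2 of 2 tested genes were lower; the mast cell and basophil sum was 2.73 to 41.9 CPM, against 7.22 to 1290, and 3 of 3 were lower.

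**Figure D3:**
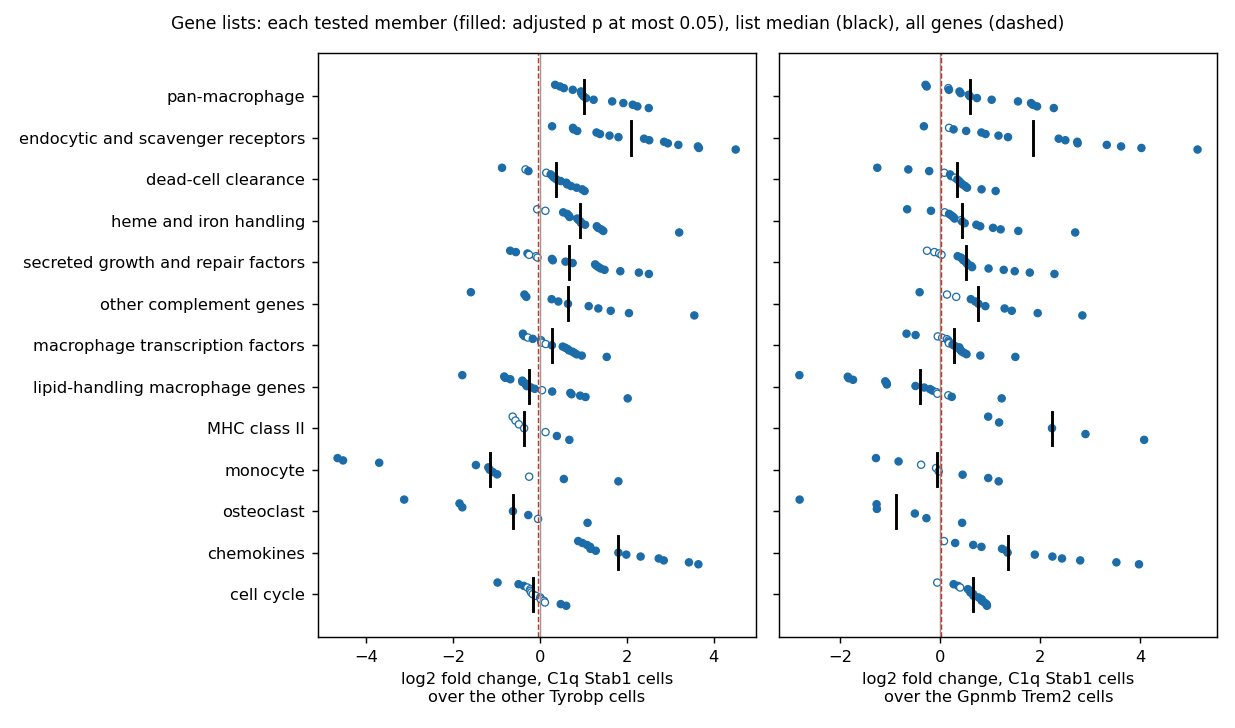
log2 fold change (x axis) of every tested gene of 13 gene lists (y axis), C1q Stab1 cells over the other *Tyrobp* cells (left) and over the Gpnmb Trem2 cells (right). The MHC class II list on the right is not read, because cells of the class II gate were left out of the Gpnmb Trem2 cells only. Each point is a gene, filled at an adjusted p of at most 0.05; black bars mark list medians, such as 2.10 (left) and 1.86 (right) for uptake receptors, and the dashed line the median of all genes.

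The second comparison was with 4813 Gpnmb Trem2 cells. These were *Tyrobp* cells outside the C1q Stab1 selection that carried both *Gpnmb* and *Trem2*, at 5 or more UMIs together per 10000, and lay outside the MHC class II gate. *Gpnmb*, a lysosomal glycoprotein, and *Trem2*, a lipid receptor, mark macrophages laden with lipid. The groups were not opposites, since 61.4% ± 11.9 of the members (SD, n = 16 pools) would have passed the *Gpnmb* and *Trem2* limits too. Members that met the class II limits were kept, while such cells were left out of the Gpnmb Trem2 cells. Differences in class II genes, and in genes that go with them, were thus fixed in part by this choice. With the genes of both gates set aside, 53% of 9959 tested genes differed by edgeR, 26.4% higher and 26.6% lower in the members, 2.04% at least 2-fold higher and 0.874% at least 2-fold lower. Thinning to 3000 UMIs gave 1461 higher and 1725 lower in place of 2632 and 2645. This comparison shares the members' libraries with the first, so the values stand side by side and do not support each other.

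Uptake receptors remained apart in this comparison, with 14 of 16 tested genes higher and 1 lower (median log2 fold change 1.86, all genes 0.01). *Mrc1* ranged from 55.3 to 180 CPM in the Gpnmb Trem2 cells, below every pool of the members, and its log2 fold change was 2.50 (SE 0.057). *Lyve1* ranged from 0 to 4.10 CPM (5.14), *Siglec1* from 0 to 4.70 CPM (4.02) and *Marco* from 0 to 16.2 CPM (3.61). *Vsig4* reached 176 CPM in 1 pool and lay at a median of 27.0 (2.84). *Folr2* did not separate these macrophages in the same way, at 104 to 467 CPM against 164 to 454 in the members (log2 fold change 0.26, adjusted p = 0.0367 by edgeR, higher in 11 of 16 pools). After thinning to 3000 UMIs the *Folr2* value was -0.15 (adjusted p = 0.223), and leaving out any 1 of pools 1, 2, 5, 8, 9, 11, 14 or 18 gave an adjusted p of 0.0516 to 0.0854.

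Chemokines showed 12 of 13 higher and none lower (median 1.34). *Ccl7* ranged from 16.7 to 128 CPM in the Gpnmb Trem2 cells (log2 fold change 2.80) and *Ccl2* from 75.0 to 503 (2.43). Secreted factors showed 14 of 18 higher and none lower (median 0.51), with *Selenop* at 292 to 725 CPM (1.79), *Gdf15* at 41.2 to 387 (1.49) and *Igf1* at 116 to 308 (0.61). *Rnase4*, a secreted ribonuclease, entered the named genes here at 134 to 501 CPM in the members against 24.1 to 66.4 (2.40). Complement genes showed 8 of 11 higher and 1 lower (median 0.76).

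*Maf* was again higher in the members. It ranged from 66.9 to 146 CPM in the Gpnmb Trem2 cells, below all pools of the members (log2 fold change 1.5, SE 0.056). Of 15 pan-macrophage genes, 12 were higher and 2 lower (median 0.59). *Csf1r* was higher by 1.02 and *Adgre1* by 1.85. The 2 lower genes were *Cd68*, a lysosomal glycoprotein (-0.28), and *Cd14*, a co-receptor for lipopolysaccharide (-0.30). With a C1q limit of 20 per 10000 their values were 0.02 and -0.03 (adjusted p = 0.836 and 0.718 by edgeR), and neither was called.

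Lower in the members were genes of lipid-laden macrophages and osteoclasts. Of 16 tested lipid-handling genes 11 were lower, 7 of them at least 2-fold, and 2 higher (median log2 fold change -0.41). *Lgals3* ranged from 1748 to 4328 CPM in the members and from 8557 to 15863 in the Gpnmb Trem2 cells, without overlap (log2 fold change -1.75, SE 0.088). *Plin2* ranged from 263 to 1074 CPM against 794 to 2613 (-1.83) and *Atp6v0d2*, a proton pump subunit of osteoclasts and macrophages, from 4.61 to 127 against 176 to 518 (-2.82). The fatty acid carriers *Fabp4* and *Fabp5* were lower by -1.08 and -1.07. *Apoe* went the other way, at 1398 to 4780 CPM in the Gpnmb Trem2 cells (log2 fold change 1.22). Of 6 tested osteoclast genes 5 were lower, among them the collagen-degrading protease *Ctsk* (-1.28) and *Mmp9* (-2.82), and 1 higher. Others among the 8 lowest were the neuropeptide gene *Npy* (-2.96), the elastase *Mmp12* (-1.85), the GTPase *Rhov* (-1.62), the cytokine receptor chain *Csf2rb2* (-1.6) and the serotonin receptor *Htr2b* (-1.54).

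Genes of the cell cycle were higher than in the Gpnmb Trem2 cells, 13 of 15 with none lower (median 0.66), but not than in the other *Tyrobp* cells as a whole (2 higher, 3 lower, median -0.17). *Mki67*, a marker of cycling cells, ranged from 34.6 to 167 CPM in the members and from 10.4 to 137 in the Gpnmb Trem2 cells (log2 fold change 0.93). At 3000 UMIs per cell, 12.1% ± 3.50 of the members (SD, n = 16 pools) held at least 2 UMIs of 8 cycle genes, against 6.76% ± 2.96 of the Gpnmb Trem2 cells and 14.7% ± 5.59 of the other *Tyrobp* cells. The mean difference within pools was 5.37 percentage points over the Gpnmb Trem2 cells (higher in 15 of 16 pools, two-sided exact permutation p = 0.000183) and -2.60 points against the other *Tyrobp* cells (higher in 4 of 16 pools, exact permutation p = 0.0299).

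The third comparison was with MHC class II cells (450 over all pools), *Tyrobp* cells outside the selection with at least 3 of *Cd74*, *H2-Aa*, *H2-Ab1* and *H2-Eb1* at 20 or more UMIs together per 10000 and outside the Gpnmb Trem2 gate. MHC class II molecules present peptides to helper T cells. Only pools 5, 6, 8 and 18 held at least 20 of them, with 52, 105, 146 and 91 cells, and only these entered the fit. In these pools 29.9%, 34.9%, 32.9% and 6.22% of the members passed the class II limits too, so the groups were not opposites. By edgeR 7.16% of 9590 tested genes differed, 4.08% higher and 3.09% lower in the members, 2.14% at least 2-fold higher and 1.58% at least 2-fold lower. With pool 5, 6 or 18 left out, 202, 176 and 257 genes were called higher in place of 391, and 175, 177 and 190 lower in place of 296. A C1q limit of 20 per 10000 gave 857 higher and 801 lower, and a fit without the pool block 106 and 54.

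The members held more mRNA of uptake receptors (12 of 17 higher, 1 lower, median log2 fold change 1.03, all genes -0.01) and chemokines (9 of 13 higher, median 0.98). Ranges overlapped for *Mrc1*, at 551.5 to 920.7 CPM in the members of these 4 pools and 293 to 680.5 in the MHC class II cells. They also overlapped for *Mgl2*, at 58.5 to 92.4 CPM against 27.9 to 211. *Vsig4* was at 145 to 357 CPM in the members of these 4 pools and at 0 to 10.3 in the MHC class II cells (log2 fold change 5.34, SE 0.35). *Folr2* was at 167 to 273 CPM against 1.51 to 16.6 (4.46, SE 0.29) and *Apoe* at 3411 to 9899 against 178 to 1881 (3.12). Cells of the Gpnmb Trem2 gate, left out of the MHC class II cells but not of the members, were rich in both. Over all pools the Gpnmb Trem2 cells held *Folr2* at 104 to 467 CPM and *Apoe* at 1398 to 4780 CPM. How much of these 2 differences the selection fixed was not tested. Also among the 8 highest were the B cell chemokine *Cxcl13* (5.04), *Ccl12* (3.88), the membrane protein gene *Smagp* (3.32) and *Slc9a9* (2.97). Over the 4 pools the MHC class II cells held only 6, 13, 21 and 23 UMIs of these genes, so the fold changes rest on few molecules. *Trem2* was the other of the 8, but its difference was fixed in part by the selection, because cells passing the *Gpnmb* and *Trem2* limits had been left out of the MHC class II cells, and it is not read here. In the heme and iron list 6 of 16 genes were higher, 1 lower and 9 not called. Among transcription factors 5 of 19 were higher, 1 lower and 13 not called. *Slc40a1* was at 22.8 to 40.7 CPM against 1.51 to 5.17 (2.92), *Maf* at 188 to 284 against 43.9 to 113 (1.57) and *Tfrc* at 54.9 to 465 against 6.07 to 103 (2.06). *Csf1r* was higher too (1.20).

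Monocyte genes were lower, 8 of 13 with 1 higher (median -2.13). *Chil3* was at 309 to 365 CPM in the members and at 4847 to 7413 in the MHC class II cells (log2 fold change -4.31, SE 0.19). *Ccr2*, the receptor of CCL2, was at 1.6 to 12.0 CPM against 25.9 to 69.8 (-2.93) and the matrix proteoglycan *Vcan* at 6.57 to 27.1 against 24.8 to 202 (-2.26). Among the 8 lowest were also the decoy receptor *Il1r2* (-4.56), the eosinophil-associated ribonucleases *Ear2* (-2.78) and *Ear1* (-2.71), *Wfdc21* (-3.83), the arginine enzyme *Ass1* (-3.23), *AA467197* (-2.77) and the HGF receptor *Met* (-2.67). *C3* was lower here as well (-2.41). The peptide loading gene *H2-DMa* was at 59.8 to 164 CPM against 208 to 441 (-1.73). The comparison cells were chosen by other class II genes, so this difference is not read here.

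Among the members, class II genes and several others differed far more between pools than most genes did. Over 2978 genes with a mean of at least 50 CPM, the SD of log2(CPM + 5) between pools had a median of 0.24. The selection genes, whose levels the rule imposed in part, lay between 0.22 and 0.70. *Cd74*, the invariant chain of class II, had the highest value, 2.89, followed by *Ccl8* (2.84) and *H2-Aa* (2.80). The 6 pools highest for *Cd74*, pools 5, 6, 7, 8, 14 and 18, were also the 6 highest for *H2-Ab1*, *Ccl8*, *Ccl12*, *Mgl2* and *Ear2*, and 5 of them were among the 6 highest for *H2-Aa*, *Clec10a* and *Chil3*. This overlap is a description of how pools were ordered, with no test.

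For *Ccl8* the pools fell apart into levels of 483 to 1579 CPM in those 6 and 1.15 to 39 CPM in the other 10. For *Cd74* they were at 195 to 2478 CPM and 3.20 to 163 CPM. *Mgl2*, a galactose lectin like *Clec10a*, was at 55.7 to 92.4 CPM in the 6 and 2.00 to 24.9 in the 10, and *Ccl12* at 39.4 to 74.0 and 3.38 to 16.9. *C1qa* and *Stab1* did not divide the pools in this way, at 1849 to 3271 and 242 to 391.8 CPM in the 6, and 1341 to 2519 and 234 to 451 CPM in the 10. Both were selection genes, so the rule bore on their levels in every pool and their evenness is not read. *Arg1*, which encodes arginase-1, did divide the pools, at 32.1 to 621 and 2.53 to 26.5 CPM. *Mrc1* lay higher in the 6 with overlap, at 552 to 921 against 337 to 675 CPM. In cells with under 2 *Tyrobp* UMIs *Cd74* reached 16.6 to 55.8 CPM and *Ccl8* 5.82 to 17.1 CPM in the 6 pools, below the members of every one of those pools. In the 10 the same cells held *Cd74* at 1.20 to 39.6 CPM and *Ccl8* at 0.0148 to 0.810. The other *Tyrobp* cells were divided the same way at *Ccl8*, at 20.9 to 120 CPM in the 6 and 0 to 3.51 in the 10. At *Ear2* they held 5.20 to 302 and 0 to 3.64 CPM, and at *Arg1* 9.63 to 151 and 0.446 to 8.999. Their *Mrc1* ranges, 69.2 to 206 and 47.5 to 68.6 CPM, nearly met. At *Mgl2* their ranges overlapped, at 5.20 to 27.7 and 0.217 to 9.14 CPM, and likewise at *Ccl12*, at 1.64 to 11.7 and 0 to 3.51. For *Cd74* the other *Tyrobp* cells were not divided, since the ranges of 180 to 1107 and 4.73 to 390.5 CPM overlapped. The 6 pools were those highest for *Cd74* in the members, so the split of the members at *Cd74* was fixed by that choice. The sum of 8 lymphocyte genes was 3.12 to 600.0 CPM over the pools in the members, and *Cd79a*, the B cell receptor chain, was detected in 0.0389% of thinned members; the part of B cell RNA in the class II values was not tested.

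**Figure D4:**
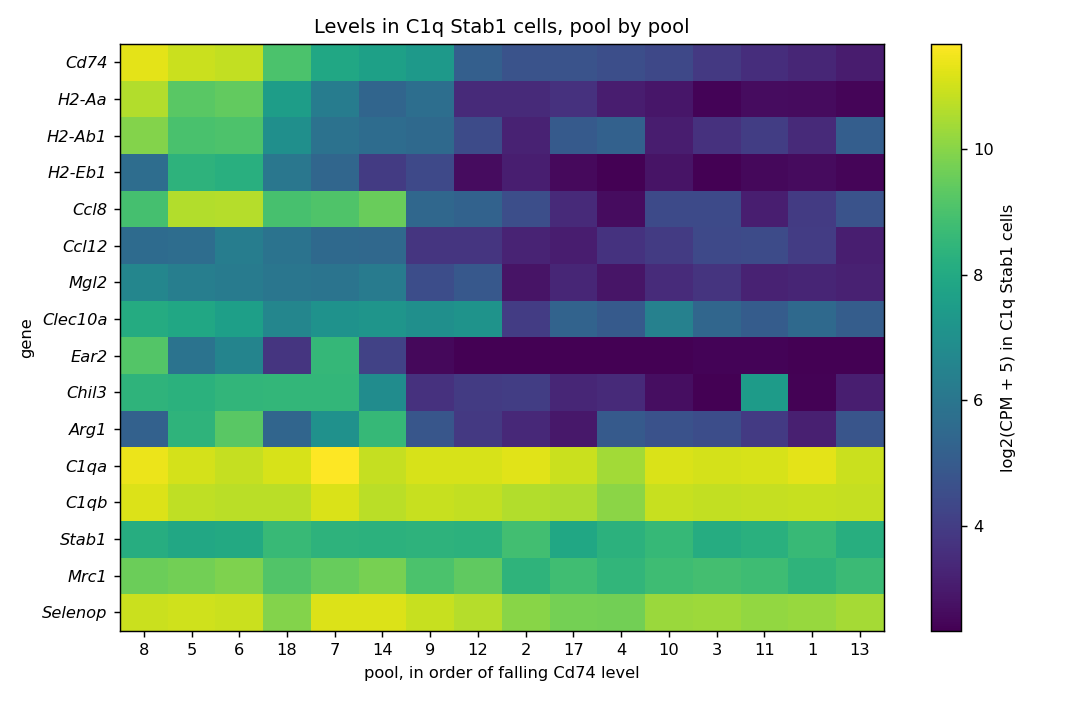
Level of 16 genes (y axis) in the C1q Stab1 cells of each pool (x axis, in order of falling *Cd74*), as log2(CPM + 5) in colour. *Cd74*, *H2-Aa*, *H2-Ab1*, *Ccl8*, *Ccl12* and *Mgl2* are high in the same few pools on the left. *C1qa*, *C1qb* and *Stab1* stay high in all 16, but they are selection genes, so the rule bears on their levels. *Mrc1* and *Selenop* are present in all 16, with pools 5, 6, 7, 8 and 14 the 5 highest for *Selenop* and the 5 highest for *Mrc1*.

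In all, 557 members passed the class II limits themselves, from 0% to 34.9% of the members of a pool. In the 5 pools with at least 20 such cells after thinning (5, 6, 7, 8 and 18), the 505 members inside the class II gate and the 1605 outside it were compared at 3000 UMIs per cell, as shares of cells with a UMI, which are given as means over these pools with no test. *Ccl8* was detected in 62.8% of members inside the gate and 12.7% outside, *Mgl2* in 37.1% and 5.55%, *Clec10a* in 48.1% and 15.8%, *Ear2* in 46.8% and 5.87%, and *Mrc1* in 90.6% and 66.8%, each higher in 5 of 5 pools. *Folr2* was detected in 21.7% inside and 40.8% outside, *Trem2* in 49.3% and 77.3%, *Stab1* in 37.2% and 60.3%, and *Fcrls* in 7.03% and 28.3%, each lower in 5 of 5 pools. *Cbr2*, another selection gene, went the other way, at 69.0% inside and 54.1% outside, higher in 5 of 5 pools. A member needed at least 3 of the 5 non-C1q genes, so the shares of *Stab1*, *Fcrls* and *Cbr2* are tied by the rule. *Lyve1* was in 3.14% and 5.50%, higher inside in 1 of 5 pools.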

How the data were processed

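Droplet libraries of 16 pools were read from the deposited matrices of UMI counts, which the authors made with Cell Ranger 5.0.0 on mm10 per the labels (32 matrices, 2 runs per pool). The counts were not normalised. Run 1 totals were 53990642 to 100777353 UMIs per pool. Of 107853 barcodes, those with 400 to 6200 genes and at most 10% mitochondrial UMIs were kept. Members and gene lists were chosen with earlier results of these data known.

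Counts were summed per pool and group (at least 20 cells each) and tested with edgeR 4.0.16 (filterByExpr, TMM, quasi-likelihood test, pool as block, Benjamini-Hochberg over all genes, adjusted p at most 0.05). Genes of the C1q Stab1 selection and of the gate compared were not tested. *Gpnmb* and *Trem2* stayed in the class II fit, although that group excluded cells of the Gpnmb Trem2 gate, and their differences there are not read. Class II genes likewise stayed in the Gpnmb Trem2 fit, although that group excluded cells of the class II gate, and their differences there are not read. The selection and the tests read the same cells, so genes that follow the selection genes or depth from cell to cell differ by construction. Named genes were, for each comparison, the 8 largest changes in each direction among genes called, moved alike in every pool and at 50 CPM or more, without gate, mitochondrial, ribosomal and unnamed genes, together with members of the lists. Changes in the number of cells and in mRNA per cell cannot be told apart in shares or sums.

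The pool number pairs groups because they come from 1 droplet library: deviations of groups from the same pool correlated at 0.145 or more in all pairs of all 3 comparisons (medians 0.478, 0.432 and 0.439), against medians of -0.0381, -0.0314 and -0.157 between pools, and each pool correlated best with itself. Mice within a pool were not separated in the files used here, so p-values measure the spread between pools.

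Doublets were scored per pool against simulated pairs (6044 barcodes called, 5.6%, at a preset rate) and were kept in the main values. Alternatives were DESeq2 1.42.0, other size factors, no filter, no block, thinning to 3000 UMIs, stricter limits, called doublets or stromal-rich cells removed, and each pool left out. One added after the data were seen set only members that also passed the Gpnmb Trem2 limits against the Gpnmb Trem2 cells. Promoters and gene positions came from RefSeq GRCm38.p6 and the GRCm38 annotation.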

Additional observations from a re-analysis of the deposited data

Results flagged for a closer look

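In 70 sets of 4 or 5 pool values, 9 held 1 pool far from the others by Dixon's gap test, which chance alone gives in about 1 of 20 sets. Levels in the 4 pools of the class II comparison are in CPM, and shares are percent of thinned cells with a UMI.

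*Il1r2* was far higher in pool 18 in both groups, at 12.0 in the members (next pool 1.23) and 250.8 in the MHC class II cells (next pool 40.4). *Ear2* and *Ear1* were far higher in the members of pool 8, at 569.9 (next pool 87.9) and 285 (next pool 36.5). *Ccl7* reached 705 in the members of pool 6 (next pool 460). *Ccl12* was at 0 in the MHC class II cells of pool 5 (next pool 4.05), with 13 UMIs over the 4 pools. *Folr2* was found in 56.4% of the members outside the class II gate in pool 6 (next pool 40%). *Fcrls* was found in 20.7% of the members inside that gate in pool 18 (next pool 6.52%). *Ear2* was found in 20.4% of the members outside it in pool 7 (next pool 3.64%).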

How the results depend on the processing

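Over the other *Tyrobp* cells, thinning to 3000 UMIs before the selection gave 1698 genes higher and 1762 lower in place of 2906 and 3390, and no replicate block gave 2241 lower. Over the Gpnmb Trem2 cells, thinning gave 1461 higher and 1725 lower in place of 2632 and 2645. Over the MHC class II cells (391 higher, 296 lower), no filter on low counts gave 778 and 468, no replicate block 106 and 54, a C1q limit of 20 per 10000 857 and 801, and thinning 185 higher. Leaving out each pool in turn gave 2762 to 2929 higher and 3042 to 3446 lower in the first comparison, 2481 to 2804 and 2337 to 2733 in the second, and 176 to 425 and 175 to 344 in the third. Members with 4 of 5 genes were 23.2% of the *Tyrobp* cells and with *Tyrobp* at 1 UMI 26.6%, in place of 36.8%. Set against the Gpnmb Trem2 cells, only the members that also passed that gate gave 2399 higher and 2551 lower. The log2 value of *Folr2* over the Gpnmb Trem2 cells turned to -0.15 with thinning, and that of *Cd68* to 0.02 with a C1q limit of 20 per 10000 and to 0.10 for the members that also passed the Gpnmb Trem2 gate. Thinning changed the depth, the cells kept, the cells selected and the number of genes tested (7011, 5784 and 5158 in the 3 comparisons, in place of 10963, 9959 and 9590) together. The cause of these changes was not tested.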
